A study of Homo sapiens with 4 samples.

Results

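The galectin genes examined here were LGALS1, LGALS3, LGALS4, LGALS7, LGALS7B, LGALS8, LGALS9, LGALS13, LGALS14 and LGALS16, which are 10 of the 19970 protein-coding genes of the annotation. Their members in the data were the ATAC-seq peaks that overlapped the GRCh38 gene body or the 25 kb on either side of it. Peaks of the 4 deposited lists that overlapped were merged into regions, and 32 of 93211 regions (0.0343%) lay in a galectin window. The genes were chosen by a measured value, because a strong region listed in only 1 library was already known to lie in the galectin cluster of chromosome 19, so the values of that region are given as a description. The windows were set by distance alone. The region nearest inside a window edge lay 24868 bp from LGALS14 and held 101 tags in WT-IFN-γ, and the nearest one outside lay 25299 bp from LGALS7 and held 18 tags in WT.

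The study asked how the transcription factor FLI1 shapes the response of nasopharyngeal carcinoma cells to interferon-γ (IFN-γ), and profiled open chromatin in HK1, an established nasopharyngeal carcinoma cell line. ATAC-seq cuts DNA with a transposase where chromatin is accessible. The 4 groups were wild-type cells given the control treatment (WT), wild-type cells given IFN-γ (WT-IFN-γ), FLI1 knockout cells given the control treatment (sgFLI1) and FLI1 knockout cells given IFN-γ (sgFLI1-IFN-γ). Each group had 1 library, so no difference between groups has a replicate check, and every interval below covers counting error only. The knockout was made with a guide RNA, and the sources used here do not state which guide these libraries carried or whether the cells were a single clone. Peak lists cannot show the edited FLI1 allele, so the genotype was not checked.

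Galectins are lectins that bind beta-galactoside sugars on glycoproteins and glycolipids. They leave the cell without a signal peptide and crosslink receptors at cell surfaces, and several of them dampen T cell responses. Galectin-1 (LGALS1) and the galectins of LGALS7, LGALS13, LGALS14 and LGALS16 have a single carbohydrate recognition domain. Galectin-3 (LGALS3) joins such a domain to a tail through which it self-associates, while the galectins of LGALS4, LGALS8 and LGALS9 carry a pair of domains on 1 chain. Many genes that respond to IFN-γ carry gamma-activated sites (GAS) or motifs of the interferon regulatory factors (IRF) in their regulatory DNA.

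Wild-type lists had 59629 (WT) and 67470 (WT-IFN-γ) peaks, and knockout lists 63203 (sgFLI1) and 59923 (sgFLI1-IFN-γ). Where 4 values are given in a row below without names, they follow this order of the libraries. The height of a peak is given as tags, the number of extended reads over its summit, which was recovered as a whole number for 100% of the peaks in each list. The lowest listed summit held 7 to 8 tags and the median one 26 to 31. The genome-wide background was 8.04, 8.84, 6.93 and 6.86 tags per kb, and tags divided by this density are called depth-scaled tags. Of 7 epithelial marker genes, KRT17, KRT18 and EPCAM had a summit within 1 kb of the transcription start site (TSS) in every list, and KRT5, KRT14, TP63 and CDH1 had none in any. Of 8 markers of other cell types, 1 to 2 had such a summit in each list: CD14 in all of them, CDH5 in WT and in sgFLI1-IFN-γ, and COL1A1 in sgFLI1.

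Most galectin windows held peaks, but few galectin promoters did. LGALS1, LGALS3 and LGALS8 had a summit within 1 kb of the canonical TSS in all 4 lists, and the other 7 genes had none in any list. Over all protein-coding genes, 59.4%, 60.3%, 59.6% and 58.8% had such a summit. The galectin windows together had 22, 24, 21 and 24 peaks. Of the 32 regions, 18 (56.2%) stood in every list and 10 (31.2%) in exactly 1, against 43.9% and 32.4% of all regions. The plot of peaks by gene shows LGALS1 and LGALS3 with the most peaks in every list, and LGALS13, LGALS16 and LGALS14 as the windows that held none in sgFLI1.

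**Figure D1:**
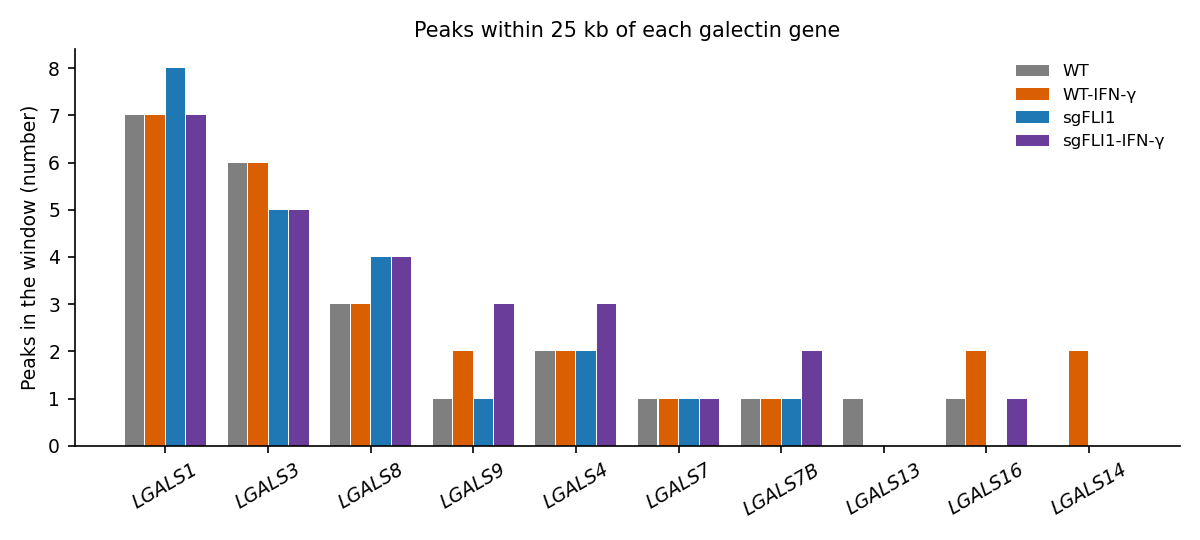
Number of peaks that overlap each galectin gene or the 25 kb around it (vertical axis) in the 4 libraries (bars), with genes on the horizontal axis; 1 library stands for each group, and a peak shared by neighbouring windows is counted in each. LGALS1 held 7 to 8 peaks in every library, while the LGALS13, LGALS16 and LGALS14 windows held none in sgFLI1.

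Regions below are named by the nearest member gene and the distance of the highest summit from its canonical TSS in bp, with minus for upstream. Motif distances refer to that summit. The tags of each library were taken at its own tallest summit in the region, so a ratio can compare different positions. At LGALS3 +396 these summits lay at 396, 439, 847 and 225 bp, and at LGALS8 +547 at 516, 547, 102 and 22 bp. At LGALS4 -24845 the sgFLI1 summit lay at -25737 bp. Because the motifs of interferon-responsive factors and the sequences at the galectin promoters bear on what follows, the reference sequence (GRCh38, plus strand) of the 201 bp centred on the summit is shown first for 3 of the regions missing from some list on which the account turns. Capitals mark motif matches. The first holds an IRF match (GAAA, 2 bases, GAAA, here on the minus strand) and a GAS match (TTCNNNGAA), and the other 2 hold an AP-1 match (TGANTCA). These are bases of the reference genome and were not read from HK1 cells.
LGALS16 +22315, chr19:39678128-39678328: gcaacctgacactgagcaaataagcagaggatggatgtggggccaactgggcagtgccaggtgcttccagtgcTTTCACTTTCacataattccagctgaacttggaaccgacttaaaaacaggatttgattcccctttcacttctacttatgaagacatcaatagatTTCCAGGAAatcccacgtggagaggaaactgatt
LGALS3 -1511, chr14:55127641-55127841: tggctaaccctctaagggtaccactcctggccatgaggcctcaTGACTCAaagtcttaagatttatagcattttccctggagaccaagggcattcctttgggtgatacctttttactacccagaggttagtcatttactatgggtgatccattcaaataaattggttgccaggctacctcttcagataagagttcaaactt
LGALS14 -7847, chr19:39696534-39696734: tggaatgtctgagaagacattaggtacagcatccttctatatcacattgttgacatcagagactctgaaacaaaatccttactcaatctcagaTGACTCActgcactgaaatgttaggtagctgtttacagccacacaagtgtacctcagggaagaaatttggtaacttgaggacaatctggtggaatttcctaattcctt

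The chromosome 19 galectin cluster, taken as 1 locus, had few peaks in any list, and its tallest one was found in WT-IFN-γ. LGALS13, LGALS16 and LGALS14 encode galectins known from the placenta, and with 25 kb on either side they span 156.921 kb (chr19:39577524-39734444). The locus had 2, 3, 0 and 1 peaks, so sgFLI1 was the library with none. The 500 kb before it held 33, 39, 30 and 30 peaks, and the 500 kb after it held 18, 19, 15 and 17. No list had a peak at the promoters of LGALS13, LGALS16 or LGALS14.

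The tallest peak of the cluster, LGALS16 +22315 (chr19:39677949-39679613), was listed in WT-IFN-γ alone. It was intergenic for protein-coding genes and held the first base of LGALS17A, a non-coding galectin-like gene, from which the summit lay at -1144 bp. Its summit had 101 tags (95% Poisson interval 82.3 to 123) over a local background of 10.7, with −log10 q = 58.0, and it ranked above 90.6% of the peaks of its list. At the same depth-scaled height it would have held 91.9 tags in WT, and 79.2 and 78.4 in the knockout libraries without and with IFN-γ, where 21, 19 and 19 tags would have reached the limit for listing. By the same reckoning every galectin region missing from a list would have been listed, down to LGALS4 +6116 with 7 tags. The reckoning therefore does not set LGALS16 +22315 apart. Of the 10854 regions listed in WT-IFN-γ alone, 17 had at least 101 tags and 99.8% had fewer, and their median was 13. Absence from a list is not a count of 0, so no fold change is given for it.

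**Figure D2:**
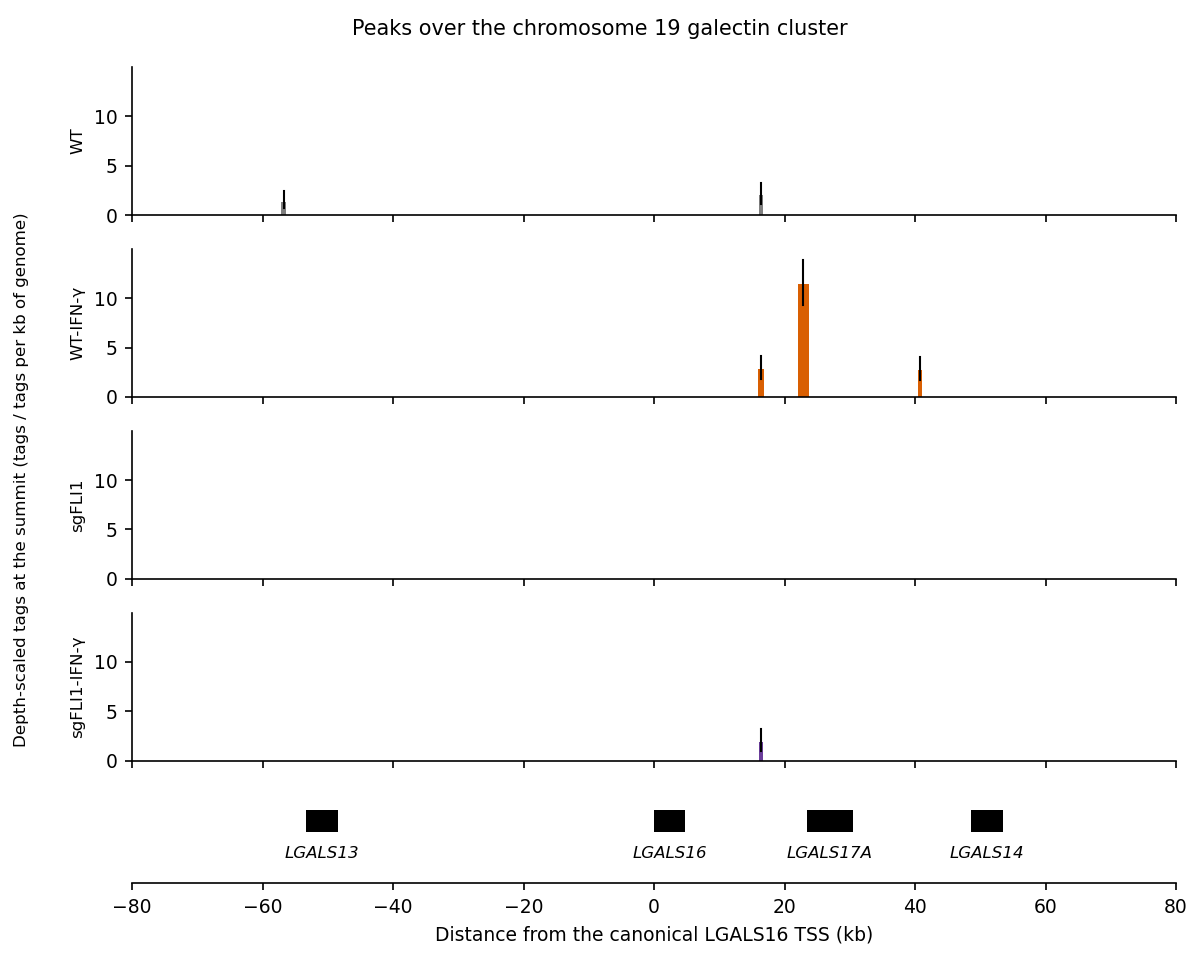
Peaks of the 4 libraries (rows) over the chromosome 19 cluster, drawn by distance from the canonical LGALS16 TSS in kb, with bar height in depth-scaled tags, bar width the peak width and vertical lines the 95% Poisson counting interval. LGALS16 +22315 reaches 11.4 depth-scaled tags in WT-IFN-γ and has no bar in the other 3 rows.

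The other regions of the cluster were low. LGALS16 +16287 (chr19:39671844-39672713), also intergenic, held 16 tags in WT, 25 in WT-IFN-γ and 13 in sgFLI1-IFN-γ and was missing from sgFLI1. LGALS14 -7847 (chr19:39696451-39696789) held 24 tags in WT-IFN-γ and stood in no other list. LGALS13 -3181 (chr19:39598908-39599359) held 11 tags in WT, likewise alone. The log2 ratio of depth-scaled tags at LGALS16 +16287 was 0.51 for WT-IFN-γ over WT, and the counting interval of that ratio held 0. Among regions shared by both lists within 2 Mb of the cluster, the median log2 ratio was -0.14 for WT-IFN-γ over WT (173 regions) and -0.10 for sgFLI1-IFN-γ over sgFLI1 (162 regions).

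The sequence at LGALS16 +22315 shown above held the IRF match 27 to 18 bases before the summit and the GAS match 67 to 75 bases after it. An IRF match was found within 100 bp of the summit in 5.60% of all WT-IFN-γ peaks and in 16.5% of the regions listed in WT-IFN-γ alone. For GAS the shares were 6.89% and 10.2%, for AP-1 23.5% and 19.9%, and for the ETS motif CCGGAAGT 1.28% and 0.221%. Both strands were searched, and a match is a description of letters, not a binding site. Neither LGALS16 +16287 nor LGALS13 -3181 held any of the 4 motifs in its window, and LGALS14 -7847 held AP-1 only. None of the 50-base words of LGALS16 +22315 recurred elsewhere on chromosome 19. In WT-IFN-γ alone, the regions with depth-scaled heights nearest to it had as nearest TSS those of NOS2 (nitric oxide synthase, 100 tags), KLHDC7B (100 tags), SERPINB6 (104 tags), TRIM22 (an antiviral interferon-induced gene, 95 tags) and ABCC2 (a drug efflux pump, 94 tags).

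**Figure D3:**
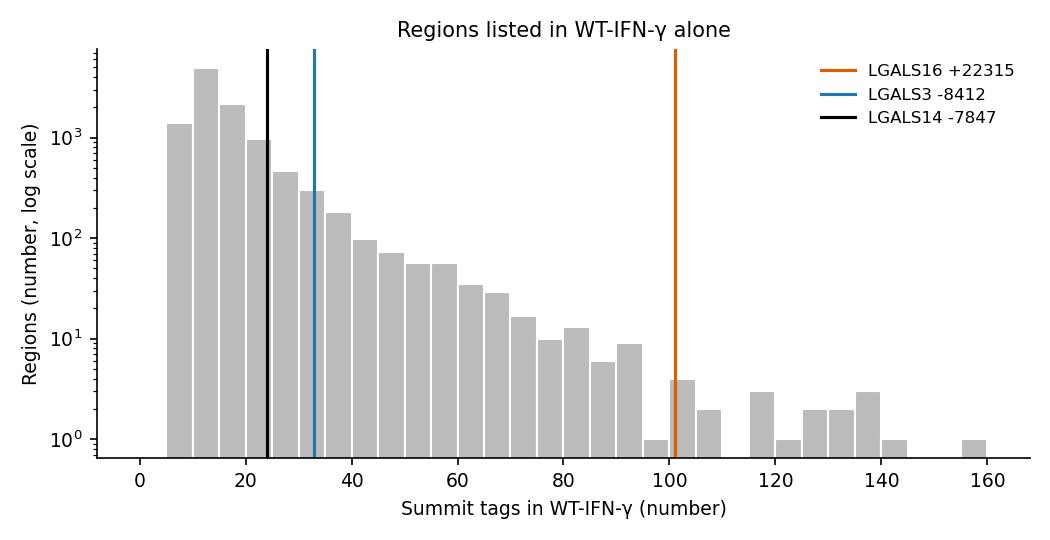
Regions listed in WT-IFN-γ alone (number, log scale) by tags at the summit in bins of 5 tags, with vertical lines at the 3 galectin regions of this kind. LGALS16 +22315 at 101 tags lies in the far tail, while LGALS3 -8412 at 33 tags and LGALS14 -7847 at 24 tags lie nearer the median of 13.

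LGALS3, whose product galectin-3 is abundant in epithelia and tumours, had the only galectin region listed in both wild-type libraries and in neither knockout library. LGALS3 -1511 (chr14:55127351-55128209) lies within the gene, upstream of the canonical TSS and downstream of the start of a longer transcript. It held 70 tags (95% interval 54.6 to 88.4) in WT and 98 (79.6 to 119) in WT-IFN-γ. The log2 ratio of WT-IFN-γ over WT was 0.35, and its interval held 0. At the WT-IFN-γ height the region would have held 76.9 tags (sgFLI1) and 76.1 tags (sgFLI1-IFN-γ), where 29 would have sufficed in each. This reckoning had the same outcome for every galectin region missing from a list. In all, 3912 regions were listed in both wild-type libraries and in no knockout library, with medians of 17 and 18 tags, and 17 of them had at least as many tags as LGALS3 -1511 in both. Its AP-1 match lies 57 to 51 bases before the summit.

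The promoter of LGALS3 was open in every library, with overlapping intervals. LGALS3 +396, in intron 1, held 74 tags in WT and 70 in WT-IFN-γ, against 59 for sgFLI1 and 74 for sgFLI1-IFN-γ. The log2 ratio was -0.22 (-0.71 to 0.28) for WT-IFN-γ over WT and 0.34 (-0.17 to 0.86) for sgFLI1-IFN-γ over sgFLI1. The other regions missing from a list were LGALS3 -8412, with 33 tags in WT-IFN-γ alone, LGALS3 -11322, with 20 and 19 tags in the knockout libraries alone, and LGALS3 +31897 inside DLGAP5, with 16 tags in WT alone. 3 distal regions, all intergenic, stood in every list. LGALS3 -26003 held 104, 94, 81 and 68 tags, LGALS3 -21090 held 103, 116, 122 and 78, and LGALS3 -6561 held 39, 39, 43 and 29. In depth-scaled tags, LGALS3 -21090 stood at 12.8, 13.1, 17.6 and 11.4, with sgFLI1 the highest. The log2 ratio was -0.63 (-1.06 to -0.21) for sgFLI1-IFN-γ over sgFLI1 and 0.46 (0.07 to 0.85) for sgFLI1 over WT. It was 0.04 (-0.36 to 0.43) for WT-IFN-γ over WT and -0.21 (-0.64 to 0.22) for sgFLI1-IFN-γ over WT-IFN-γ.

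**Figure D4:**
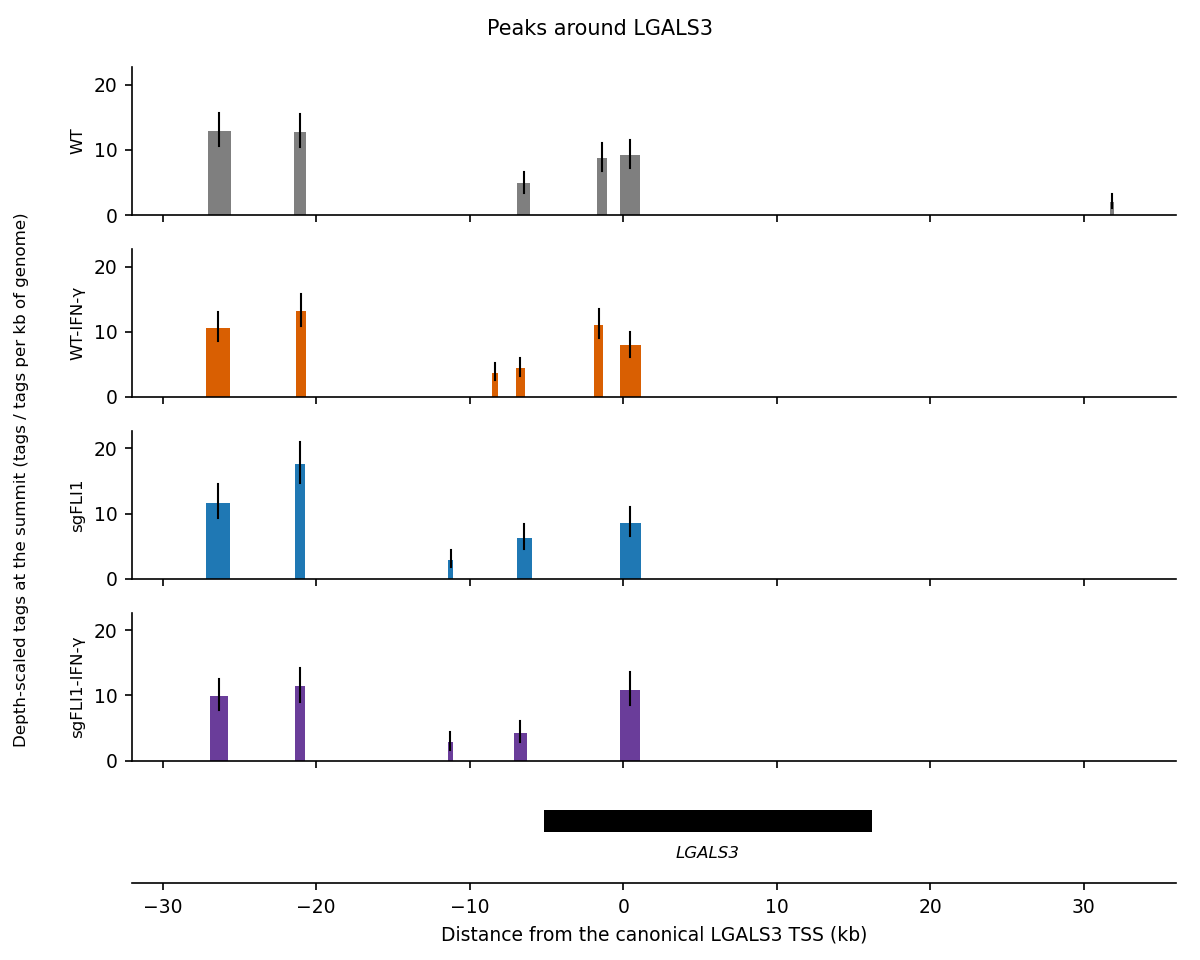
Peaks of the 4 libraries (rows) around LGALS3 by distance from its canonical TSS in kb, with bar height in depth-scaled tags, bar width the peak width and vertical lines the 95% Poisson counting interval. The bar at -1511 bp stands in WT and WT-IFN-γ at 8.70 and 11.1 depth-scaled tags and is missing from both knockout rows.

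LGALS1, which encodes the immunosuppressive galectin-1, had the tallest galectin promoter peak in each list. LGALS1 -397 (chr22:37674986-37676121) held 124 tags in WT and 154 in WT-IFN-γ, against 125 for sgFLI1 and 111 for sgFLI1-IFN-γ, and it contains a GAS match 12 to 4 bases before the summit. The log2 ratio was 0.18 (-0.17 to 0.53) with IFN-γ in WT and -0.16 (-0.54 to 0.22) in the knockout. LGALS1 +1575, in intron 2, held 79, 77, 68 and 61 tags. The 1 LGALS1 region absent from lists was LGALS1 +13711, in NOL12, with 22 tags in sgFLI1 alone. The remaining regions in the window, at -17009, -7423, +6057, +10898 and +21284, stood in every list. Those at -17009 and +21284 lie at transcript starts of PDXP and TRIOBP. NOL12 and an unnamed gene have transcript starts in the regions at +6057 and +10898. LGALS1 -17009 held 119, 149, 129 and 109 tags, LGALS1 +21284 held 118, 93, 121 and 89, and LGALS1 +10898 held 98, 102, 97 and 93. LGALS1 -7423 and LGALS1 +6057 were lower, with 44, 30, 27 and 20 tags and 45, 44, 40 and 33 tags. The log2 ratio with IFN-γ at LGALS1 +21284 was -0.48 (-0.89 to -0.07) in WT and -0.43 (-0.84 to -0.02) in the knockout. Shared regions within 2 Mb had median log2 ratios of -0.08 and -0.12 in these comparisons. With the medians taken off, the ratios were -0.40 and -0.31, and the intervals were not centred in this way.

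LGALS8 encodes galectin-8, which marks damaged endosomes for autophagy. LGALS8 +547 (chr1:236523436-236524952), in intron 1 and at the start of the antisense transcript LGALS8-AS1, held 59 tags in WT and 77 in WT-IFN-γ, against 53 for sgFLI1 and 47 for sgFLI1-IFN-γ. It contains a GAS match 67 to 59 bases before the summit. The log2 ratio with IFN-γ was 0.25 (-0.26 to 0.76) in WT and -0.16 (-0.76 to 0.44) in the knockout. For all 3 promoter regions and all 4 comparisons, the interval of the log2 ratio held 0. Within intron 2, LGALS8 +7918 held 35 tags in WT and 60 in WT-IFN-γ, against 50 for sgFLI1 and 30 for sgFLI1-IFN-γ, and was singled out after its values were seen. Its log2 ratio with IFN-γ was 0.64 (0.02 to 1.29) in WT and -0.72 (-1.43 to -0.04) in the knockout. Shared regions within 2 Mb had median log2 ratios of -0.008 and -0.16 in these comparisons. With the medians taken off, the ratios were 0.65 and -0.56. The intervals, which each end close to 0, were not centred in this way. LGALS8 -20689 stood in every list with 14 to 17 tags, and contains a GAS match 26 to 18 bases before the summit. LGALS8 +19042 held 11 tags in sgFLI1 alone and LGALS8 -26360 held 8 tags in sgFLI1-IFN-γ alone.

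LGALS9 encodes galectin-9, an interferon-inducible ligand of the T cell receptor TIM-3 (HAVCR2), and had no promoter peak in any list. Sequence that recurs in the genome was not searched for at LGALS9, and the authors removed alignments of low mapping quality. A closed promoter and reads lost to repeats were therefore not told apart here. LGALS9 +23609 (chr17:27654364-27655336) stood in every list with 57, 51, 50 and 40 tags. LGALS9 -21419, in an intron of KSR1 and at the start of another KSR1 transcript, held 14 tags in WT-IFN-γ and 16 in sgFLI1-IFN-γ. It stood in no untreated list. LGALS9 +20441 held 15 tags in sgFLI1-IFN-γ alone. The RefSeq promoter of LGALS9 (GRCh38.p14, 250 bases before to 50 after the start, chr17:27630938-27631237, plus strand) is shown because it holds an IRF match, in capitals, at -9 from the start.
LGALS9 promoter: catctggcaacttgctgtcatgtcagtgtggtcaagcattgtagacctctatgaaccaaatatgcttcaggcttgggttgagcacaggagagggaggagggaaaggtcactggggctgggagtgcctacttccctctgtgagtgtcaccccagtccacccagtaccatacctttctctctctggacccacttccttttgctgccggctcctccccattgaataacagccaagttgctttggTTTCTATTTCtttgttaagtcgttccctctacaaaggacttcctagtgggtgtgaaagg
Of 35116 RefSeq promoters of this length, 3.57% held an IRF match, 7.66% GAS, 7.71% AP-1 and 4.14% ETS. RefSeq promoters were found for 9 of the 10 members, in 11 sequences.

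LGALS4, an intestinal galectin, and LGALS7 and LGALS7B, near-identical neighbours expressed in stratified epithelia, lie apart from the cluster on the same chromosome. The LGALS7, LGALS7B and LGALS4 locus had 3, 3, 3 and 4 peaks, none of them at a galectin promoter. LGALS7 +3569 (chr19:38769491-38770443), at a transcript start of CAPN12, held 42 tags in WT and 25 in WT-IFN-γ, against 15 for sgFLI1 and 26 for sgFLI1-IFN-γ. Its log2 ratio of sgFLI1 over WT was -1.27 (-2.23 to -0.39), the only galectin region at least 2-fold apart in any of the 4 comparisons. The tallest galectin region of all, LGALS4 -18841 at the ECH1 promoter, held 175, 168, 124 and 115 tags. LGALS4 -24845 in HNRNPL, which holds the start of an HNRNPL transcript, had 79, 77, 46 and 37. The log2 ratio of knockout over wild type at LGALS4 -24845 was -0.57 (-1.12 to -0.02) without IFN-γ and -0.69 (-1.30 to -0.11) with it. Shared regions within 2 Mb had a median log2 ratio of -0.17 in each of these comparisons. With the medians taken off, the ratios were -0.39 and -0.52, and the intervals were not centred in this way. LGALS4 +6116, in intron 3, held 7 tags in sgFLI1-IFN-γ alone, the lowest count of any galectin peak. On chromosome 19 as a whole, the median log2 ratio of shared regions was -0.18 for sgFLI1 over WT and -0.20 for sgFLI1-IFN-γ over WT-IFN-γ, against 0.05 and -0.02 over the genome, and its part in these values was not tested.

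The promoters of LGALS7 and LGALS7B (GRCh38.p14, chr19:38773468-38773767, minus strand, and chr19:38788950-38789249, plus strand) are shown because they share 89.9% of aligned bases (276 of 307), with the AP-1 match in capitals in both.
LGALS7 promoter: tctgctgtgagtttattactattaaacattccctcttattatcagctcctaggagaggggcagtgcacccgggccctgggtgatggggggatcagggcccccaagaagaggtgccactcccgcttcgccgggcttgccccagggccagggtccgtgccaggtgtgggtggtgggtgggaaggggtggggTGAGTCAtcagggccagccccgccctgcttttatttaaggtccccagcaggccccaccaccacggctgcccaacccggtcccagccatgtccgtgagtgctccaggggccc
LGALS7B promoter: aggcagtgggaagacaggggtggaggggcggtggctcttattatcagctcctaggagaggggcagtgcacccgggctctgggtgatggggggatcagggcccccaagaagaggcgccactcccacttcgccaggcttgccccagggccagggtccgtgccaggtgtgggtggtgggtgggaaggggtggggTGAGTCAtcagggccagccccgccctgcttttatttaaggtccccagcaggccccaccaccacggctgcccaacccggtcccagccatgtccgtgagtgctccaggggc
Of the 50-base words of the LGALS7 and LGALS7B gene bodies, 90.0% recurred on chromosome 19, and within 1 kb of each TSS 54.9% and 55.0% did. The authors removed alignments of low mapping quality, so at these genes a closed promoter and reads lost to the repeat cannot be told apart. The promoters of LGALS13, LGALS16 and LGALS14 were 84.8% to 87.8% identical in pairs, but at most 1.62% of the 50-base words of their gene bodies recurred.

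With IFN-γ in wild-type cells, 4 of 24 WT-IFN-γ galectin peaks (16.7%, Wilson 95% interval 6.68 to 35.9) had no WT peak, against 25.2% of all WT-IFN-γ peaks. In the other direction, 2 of 22 WT peaks (9.09%) had no WT-IFN-γ peak, against 15.9%. In knockout cells, 5 of 24 sgFLI1-IFN-γ peaks (20.8%) had no sgFLI1 peak, against 18.0%, and 2 of 21 sgFLI1 peaks (9.52%) had no sgFLI1-IFN-γ peak, against 22.2%. The share of galectin peaks thus lay near or below the share over all peaks, and every interval held the share over all peaks. By gene, a region gained with IFN-γ lay in the window of 4 of 10 members in wild-type cells (LGALS3, LGALS9, LGALS14 and LGALS16), against 50.9% of protein-coding genes. LGALS14 and LGALS16 share LGALS16 +22315 in this count. In knockout cells it was 5 of 10 (LGALS4, LGALS7B, LGALS8, LGALS9 and LGALS16), against 37.7%, and LGALS4 and LGALS7B both rest on LGALS4 +6116 with its 7 tags. With −log10 q of at least 5 in every list, 2 galectin peaks were gained in knockout cells, against 5 without that limit.

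Between genotypes without IFN-γ, 3 of 21 sgFLI1 peaks (14.3%) had no WT peak, against 25.3%, and 4 of 22 WT peaks (18.2%) had no sgFLI1 peak, against 21.4%. With IFN-γ, 4 of 24 sgFLI1-IFN-γ peaks (16.7%) had no WT-IFN-γ peak, against 19.8%, and 4 of 24 WT-IFN-γ peaks (16.7%) had no sgFLI1-IFN-γ peak, against 29.0%. Those last 4 were LGALS16 +22315 (101 tags), by whose value the genes were chosen, LGALS3 -1511 (98 tags), LGALS3 -8412 (33 tags) and LGALS14 -7847 (24 tags). The 4 in the other direction were LGALS3 -11322 (19 tags), LGALS9 +20441 (15 tags), LGALS8 -26360 (8 tags) and LGALS4 +6116 (7 tags). These tags are not scaled for depth. In depth-scaled tags, LGALS3 -11322 stood at 2.77 in sgFLI1-IFN-γ and LGALS14 -7847 at 2.72 in WT-IFN-γ. The comparisons share libraries, so their shares are set side by side only.

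For regions in both lists, the median log2 ratio of depth-scaled tags over the galectin regions was -0.15 for WT-IFN-γ over WT (20 regions, -0.07 over all) and -0.23 for sgFLI1-IFN-γ over sgFLI1 (19 regions, -0.14 over all). It was 0.035 for sgFLI1 over WT (18 regions, 0.05 over all) and -0.07 for sgFLI1-IFN-γ over WT-IFN-γ (20 regions, -0.02 over all). Centred on shared regions within 2 Mb, the value for sgFLI1 over WT turned to -0.07. The counts of galectin regions at least 2-fold apart were 0, 0, 1 and 0, against 2.71%, 0.722%, 5.99% and 6.27% of all shared regions. A counting interval that left out 0 was found for 3 of 20, 3 of 19, 4 of 18 and 1 of 20 galectin regions, against 7.53%, 4.50%, 15.2% and 14.3% of all shared regions.

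**Figure D5:**
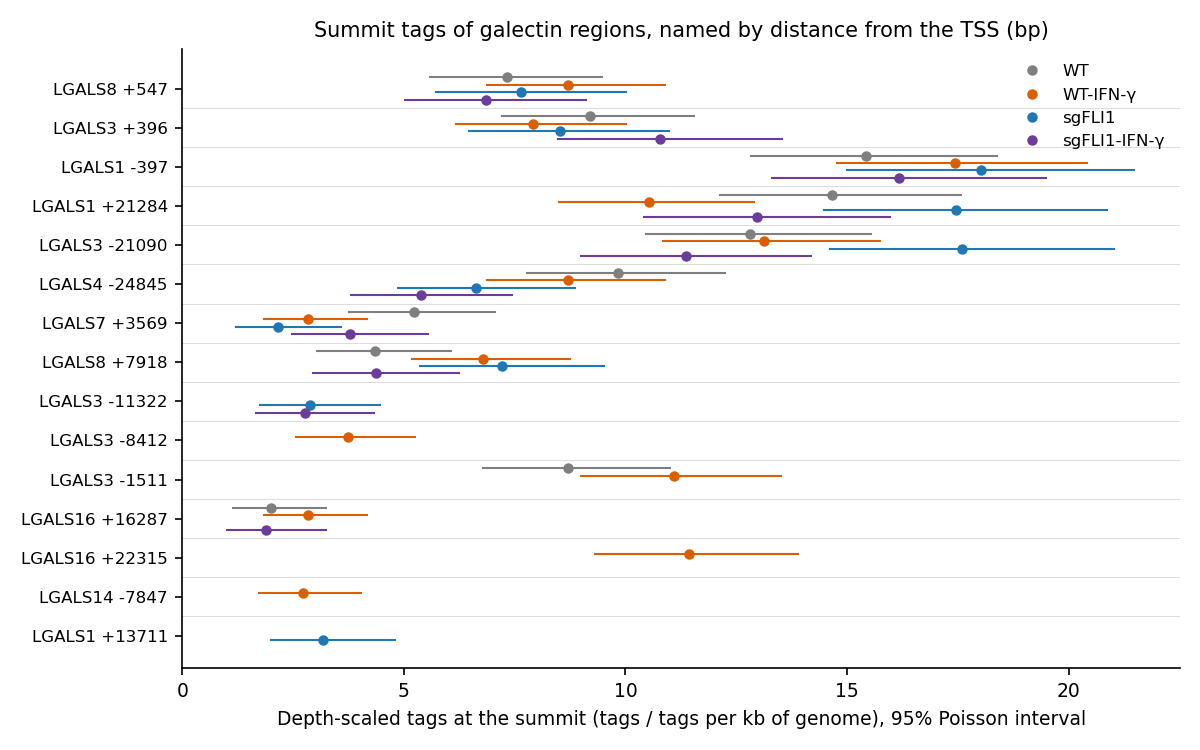
Depth-scaled tags at the summit (horizontal axis, from 0) in the 4 libraries, for the promoter regions, the regions whose counting interval left out 0 in some comparison, and those missing from a list that reached 20 tags, with points for the value and lines for the 95% Poisson interval; a missing point means that the region was not listed in that library. The intervals of the 4 libraries overlap at the LGALS1, LGALS3 and LGALS8 promoters, and LGALS3 -1511, LGALS16 +22315 and LGALS14 -7847 lack points in 2 or 3 libraries.

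Among 7 other galectin family genes, LGALSL had a promoter peak in every list, with 96, 79, 58 and 38 tags. LGALS12 had one in the knockout libraries, with 18 and 22 tags, and LGALS2, LGALS9B, LGALS9C, CLC and GRIFIN had none. Sequence that recurs in the genome was not searched for at these genes either. Of 12 genes for galectin partners and for enzymes that build their glycan ligands, 8, 9, 8 and 8 had a promoter peak. The depth-scaled height was greater in WT-IFN-γ than in WT at LGALS3BP, CD44, MUC1 and GCNT1 and smaller at ITGB1, LAMP1, B4GALT1 and B3GNT2. LGALS3BP, whose product binds galectin-3, held 50, 87, 68 and 56 tags there, and CD44, a hyaluronan receptor, 56, 98, 80 and 63. LAMP1, a lysosomal glycoprotein, held 129, 110, 112 and 110 tags, and B3GNT2, which extends poly-N-acetyllactosamine chains, 66, 57, 58 and 52. ST6GAL1, whose sialic acid blocks galectin binding, had a peak of 14 tags in WT-IFN-γ alone, and HAVCR2, PTPRC and MGAT5 had none in any list. A region gained with IFN-γ lay in the window of 9 of the 12 in wild-type cells, against the 50.9% of all genes, and of 7 of the 12 in knockout cells, against the 37.7%. Long genes have longer windows, such as MGAT5 (334639 bp) and GCNT1 (231354 bp), and the counts were not adjusted for length.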

How the data were processed

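ATAC-seq was run on HK1 cells in 4 groups with 1 library each. Per the study's methods and the submitters' processing notes, the authors trimmed reads with Trimmomatic 0.3, aligned them with Bowtie2 2.3.4.1 to GRCh38, discarded poorly mapped and duplicate reads and called peaks with MACS2 2.1.2. A reproducibility filter is named in the methods, but with 1 list per group it is not stated how it was applied here, and a shift of the reads for the transposase is not stated. The deposited peak lists give a fold enrichment (a ratio), −log10 p, −log10 q and a score for each summit; the score deposited by the authors was not used. The largest q in the lists was 0.0499.

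Tags and local background were recovered from the fold and −log10 p of each summit, with a tolerance of 0.001 in −log10 p, after a test on simulated data. Depth was taken as the library's background in tags per kb (6.86 to 8.84), since read totals were not used here. An overlap of 1 bp made peaks of 2 lists shared. Tags carry exact 95% Poisson intervals, log2 ratios exact binomial intervals of the 2 counts, and shares Wilson intervals, all of counting error only; tags are not independent molecules. The tags needed for listing assume that local background scales with depth. Genes came from GENCODE 44 and motifs were sought within 100 bp of the summit. The work ran in Python 3.11.15 with scipy 1.17.1, pandas 2.3.3, numpy 2.4.6 and, for plots, matplotlib 3.10.9.

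Described one by one were regions within 1 kb of a member's TSS, regions missing from a list that reached 20 tags in another, regions at least 2-fold apart in a comparison, and up to 5 genes nearest in height to the tallest cluster region. Outside these rules, ratios are given for LGALS1 +21284, LGALS3 -21090, LGALS4 -24845 and LGALS8 +7918, picked because a counting interval left out 0. The members, gene lists and rules were chosen with earlier results of these data known. Alternatives tried were −log10 q limits of 5 and 10, windows of 10 and 50 kb, summit in window, 50% overlap, the whole chromosome 19 span and other centrings of the tags.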

Additional observations from a re-analysis of the deposited data

Results flagged for a closer look

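At 3 regions the log2 change of depth-scaled tags with IFN-γ differed between the genotypes beyond counting error; with 1 library per group the difference was not tested against replicate spread. At LGALS8 +7918, in intron 2, the change was 0.64 in wild-type and -0.72 in knockout cells, a difference of -1.36 (95% counting interval -2.25 to -0.48). At LGALS7 +3569, at a CAPN12 transcript start, it was -0.88 in wild-type and 0.81 in knockout cells, a difference of 1.69 (0.53 to 2.86). At LGALS3 -21090 it was 0.036 in wild-type and -0.63 in knockout cells, a difference of -0.67 (-1.23 to -0.10). These were picked from 18 galectin regions listed in all 4 libraries, and the intervals were not widened for that. The share of such differences over all regions listed in every library was not computed. Whether 3 of 18 is more or less than that share is therefore not known, and it is not read as a trait of the galectin genes.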

How the results depend on the processing

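Of 102 values recomputed under alternatives, 66 stayed within 1.5 times the reported count or within the counting interval of the reported log2 value, and 36 moved, all of them counts of peaks; the 2 values added after seeing the data were among those that did not move. With −log10 q of at least 5, the cluster held 1 peak in WT, 1 WT galectin peak lacked a WT-IFN-γ peak, 2 sgFLI1-IFN-γ peaks lacked an sgFLI1 peak, 1 sgFLI1 peak lacked an sgFLI1-IFN-γ peak, 1 sgFLI1-IFN-γ peak lacked a WT-IFN-γ peak and 0 sgFLI1 peaks lacked a WT peak. With at least 10, the windows held 15 peaks in sgFLI1-IFN-γ, the cluster 0 in WT and 0 in sgFLI1-IFN-γ, and those 5 counts became 0, 1, 1, 0 and 1, while 2 WT peaks lacked an sgFLI1 peak. With 10 kb windows there were 13, 14 and 14 peaks in WT, WT-IFN-γ and sgFLI1-IFN-γ, gains with IFN-γ of 2 and 2 in wild-type and knockout cells, 1 loss in wild-type cells, and 2 WT peaks without an sgFLI1 peak. With 50 kb windows there were 34, 40 and 35 in WT, WT-IFN-γ and sgFLI1, cluster counts of 5 in WT-IFN-γ and 2 in sgFLI1-IFN-γ, 10 gains and 4 losses in wild-type cells, 7 losses in knockout cells, 9 WT-IFN-γ peaks without an sgFLI1-IFN-γ peak and 6 sgFLI1 peaks without a WT peak. Over the whole span from LGALS7 to LGALS14 the counts were 56, 62, 49 and 50. The limits are 1 library per group and no tags for unlisted regions. No paired analysis was possible because each group has 1 library.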
